A study of Rattus norvegicus with 9 samples.

Results

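The S100 calcium binding proteins were followed in liver RNA of rats with fibrosis caused by carbon tetrachloride (CCl4). Taken by their symbols in the count tables were 9 genes, S100a1, S100a4, S100a6, S100a8, S100a9, S100a10, S100a11, S100a13 and S100a16, of the 16730 genes that both deposited tables list. S100a8 and S100a9, which are known as the main cytosolic proteins of neutrophils, were kept apart from the other 7. Livers of 9 male Sprague–Dawley rats were sequenced, 3 in each of 3 groups. The normal control group received saline. The model group received 2 mL/kg of CCl4, a hepatotoxin, as a 50% solution in oil into the stomach, 2 times a week for 9 weeks. The TA group received the same CCl4 and then tormentic acid (TA), a plant triterpene, at 3 mg/kg for 6 weeks, a dose that comes from the series description because the library labels name TA without one. All rats were fasted for 12 h before the livers were taken. The labels call the model and TA livers hepatitis stage, and they number the TA libraries as TA1, TA2 and TA3, which were treated here as 1 group. Strain, sex and tissue were shared by all groups, and the age of the rats is not given in the sources used here.

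S100 proteins are small proteins with a pair of EF-hand calcium sites that mostly work as dimers. When calcium binds, the dimer opens a surface that holds a partner such as an annexin or a myosin tail, and some members are also secreted and act on cell surface receptors. In injured liver the family is best known from cells other than hepatocytes. S100a4 is called fibroblast-specific protein, S100a6 and S100a11 are found in bile duct and fibrogenic cells, and S100a8 with S100a9 form calprotectin, which neutrophils and monocytes carry.

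Each liver gave between 13156735 and 18090405 counted reads. Reads on the 9 genes numbered between 1028 and 4783 in 8 livers and 17285 in model replicate 1. That liver also stood apart over the whole library, since its 50 genes with the most reads took 27.9% of all reads, against 40.4% to 45.7% in the others. Hepatocyte markers (7 genes, among them Alb and Apoa1) were present in every liver, and their summed level was 92417 to 123313 CPM (read counts scaled to library size) in normal livers, 22599, 64740 and 82760 CPM in model replicates 1 to 3 and 72164 to 133963 CPM in TA livers. For the S100 genes and their partners, values without this liver are given where it carries a result. The labels do not say whether the livers of a group were handled together, so that p-values measure the spread between these rats and libraries.

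Promoter sequences from RefSeq (assembly GRCr8) were matched for 6 of the 9 genes. The build behind the files is unsettled, so that these positions serve the printed sequences only. The sequences of 4 genes are shown because these genes differed most in how they varied among the livers: S100a11 had the largest fold change between model and normal livers, S100a4 the widest spread among model livers, S100a9 is a neutrophil gene and the groups of S100a13 overlapped. Each runs 5′ to 3′ over the 250 bases before the gene start, and capitals mark matches to a motif. S100a4 lies at chr2:178388279-178388528 on the plus strand and S100a11 at chr2:181874882-181875131 on the plus strand. S100a9 lies at chr2:178490623-178490872 on the minus strand and S100a13 at chr2:178296770-178297019 on the plus strand.
S100a4: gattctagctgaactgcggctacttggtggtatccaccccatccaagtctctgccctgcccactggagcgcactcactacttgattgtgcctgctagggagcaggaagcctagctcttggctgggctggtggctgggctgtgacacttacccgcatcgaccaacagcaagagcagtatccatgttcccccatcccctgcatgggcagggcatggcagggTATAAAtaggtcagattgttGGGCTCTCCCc
S100a11: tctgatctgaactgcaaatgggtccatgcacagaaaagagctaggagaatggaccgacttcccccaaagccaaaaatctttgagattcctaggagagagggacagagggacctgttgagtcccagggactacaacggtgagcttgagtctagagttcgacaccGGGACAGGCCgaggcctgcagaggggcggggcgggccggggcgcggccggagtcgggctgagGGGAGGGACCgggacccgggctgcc
S100a9: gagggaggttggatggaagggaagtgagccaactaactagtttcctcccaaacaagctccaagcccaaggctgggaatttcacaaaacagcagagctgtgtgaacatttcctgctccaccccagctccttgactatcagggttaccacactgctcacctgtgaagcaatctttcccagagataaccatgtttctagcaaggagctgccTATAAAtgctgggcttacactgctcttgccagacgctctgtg
S100a13: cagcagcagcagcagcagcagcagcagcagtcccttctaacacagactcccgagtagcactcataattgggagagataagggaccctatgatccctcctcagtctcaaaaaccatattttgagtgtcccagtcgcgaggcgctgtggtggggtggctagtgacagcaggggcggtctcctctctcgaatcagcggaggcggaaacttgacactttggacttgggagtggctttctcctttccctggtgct

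A TATA box (TATAAA, read on both strands) was found in S100a4 from -31 to -26 and in S100a9 from -42 to -37, counted from the gene start. A loose form of the NF-kB site, GGGA and CC with any 4 bases between them, was found in S100a11 from -87 to -78 and from -25 to -16, and in S100a4 from -11 to -2 on the minus strand. S100a6, which is not printed, held that motif from 32 to 41 after its start. Neither the AP-1 motif TGANTCA nor the C/EBP motif TTGCNNAA was found in the 300 bases searched of these 6 genes (250 before the start and 50 after it), and no matches overlapped one another. Of 33469 rat promoters of that length, 14.2% held the TATA box, 19.3% the NF-kB letters, 7.33% the AP-1 letters and 10.6% the C/EBP letters. A match of letters is a description and shows no binding.

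Levels were first compared between the genes within a liver, on the FPKM scale, which divides by gene length. In the normal control group S100a13 led with 34.0 ± 14.6 FPKM (SD, n = 3), and S100a11 followed with 26.6 ± 9.59 FPKM, S100a10 with 23.1 ± 9.78 FPKM and S100a16 with 19.5 ± 1.65 FPKM. S100a9, S100a6, S100a8, S100a4 and S100a1 came next, with means from 13.1 down to 4.70 FPKM. S100a16 lay above S100a9 in every normal liver with no overlap of their ranges, and all other neighbours in that order overlapped.

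In the model group the order was different, and S100a11 led with 584 ± 587 FPKM (SD, n = 3). S100a10 followed with 279 ± 287 FPKM, S100a6 with 195 ± 200 FPKM and S100a4 with 90.4 ± 124 FPKM. The SDs were as large as the means because model replicate 1 was far above the others, yet within each of the 3 model livers S100a11 exceeded S100a10, S100a10 exceeded S100a6 and S100a6 exceeded S100a4. S100a13, which led in normal liver, had 48.3 ± 26.3 FPKM, above S100a1 alone. Without model replicate 1 the mean of the other 2 model livers was 248 FPKM for S100a11, 116 FPKM for S100a10, 80.7 FPKM for S100a6 and 18.6 FPKM for S100a4, which was then the lowest of the 9, while S100a13 had 33.4 FPKM. In the TA group S100a11 led again with 60.1 ± 28.5 FPKM, then S100a10 with 44.6 ± 14.7 FPKM and S100a6 with 34.3 ± 17.8 FPKM. Neighbouring ranges overlapped throughout the order in the model and in the TA group.

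**Figure D1:**
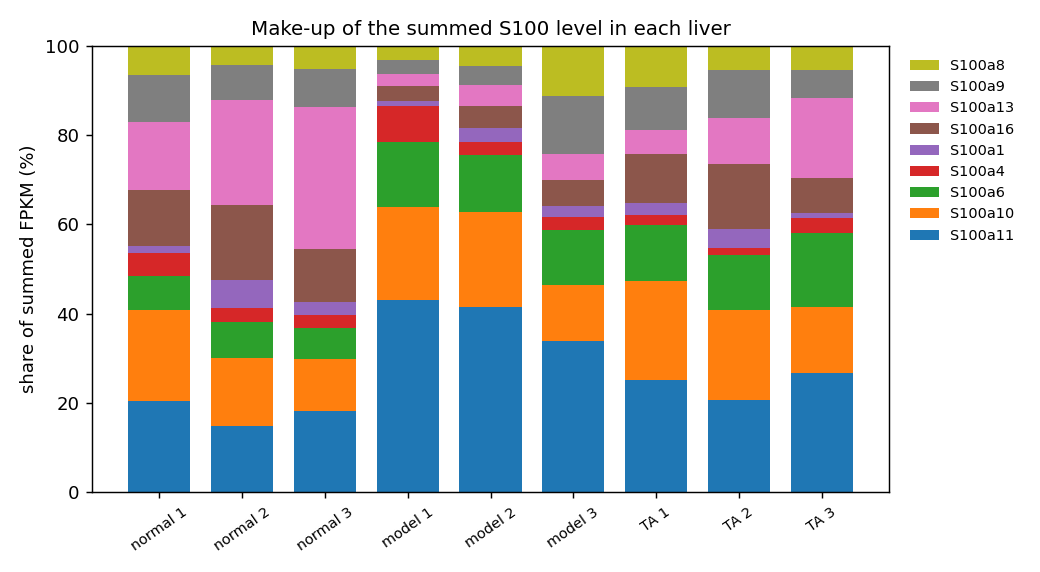
Stacked bars give the share of each S100 gene in the summed FPKM of the 9 genes (percent, vertical axis) in each of the 9 livers (horizontal axis). S100a11 took 33.8% to 43.2% in the model livers, against 14.9% to 20.5% in normal livers, and S100a13 took 2.69% to 5.96% against 15.2% to 31.8%. A share can fall while the level does not, and S100a13 had means of 48.3 FPKM in model and 34.0 FPKM in normal livers.

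The makeup of the family in each liver showed the same difference. The summed level of the 9 genes was 107, 160 and 169 FPKM in the normal livers, 485, 802 and 2906 FPKM in the model livers, and 141, 260 and 321 FPKM in the TA livers. S100a11 took 33.8% to 43.2% of that sum in the model livers, 14.9% to 20.5% in normal livers and 20.8% to 26.7% in TA livers, so that the 3 groups did not overlap. S100a13 took 15.2% to 31.8% in normal livers and 2.69% to 5.96% in model livers. A share falls when the other genes of the sum rise, and its mean level was 34.0 FPKM in normal and 48.3 FPKM in model livers. FPKM is scaled to library totals, by which the median log2 fold change of all genes between model and normal livers was 0.65. S100a8 and S100a9 together took 6.38% of the sum in model replicate 1, 8.83% in model replicate 2 and 24.1% in model replicate 3, a range that spans the 12.1% to 16.9% of the normal livers. Their share was above that range in 1 model liver and below it in the other 2. These shares are descriptions and were not tested.

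Model VS Normal asked how the S100 transcripts differed between CCl4-injured and normal liver. Counts were compared with edgeR's quasi-likelihood test over 12730 genes, and levels between livers are given in CPM after TMM normalization. S100a6, S100a8, S100a9, S100a10 and S100a11 rose in the model group at an adjusted p under 0.05, and none of the 9 genes fell. These are 5 of 9 genes, where 6.86% of all genes tested were called higher. The study's methods set another rule, in which p is not adjusted but under 0.05 and the log2 fold change is above 1 in size, and by it 7 of the 9 were called higher, with S100a1 and S100a4 added, against 16.6% of all genes. Levels of 8 genes, all but S100a13, were higher in every model liver than in any normal liver, as were those of 20.9% of all genes. The median log2 fold change was 2.28 over the 9 genes, 2.78 over the 7 outside the neutrophil pair and 0.02 over all genes tested. In bulk liver, more cells that carry a transcript and more transcript per cell cannot be told apart.

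**Figure D2:**
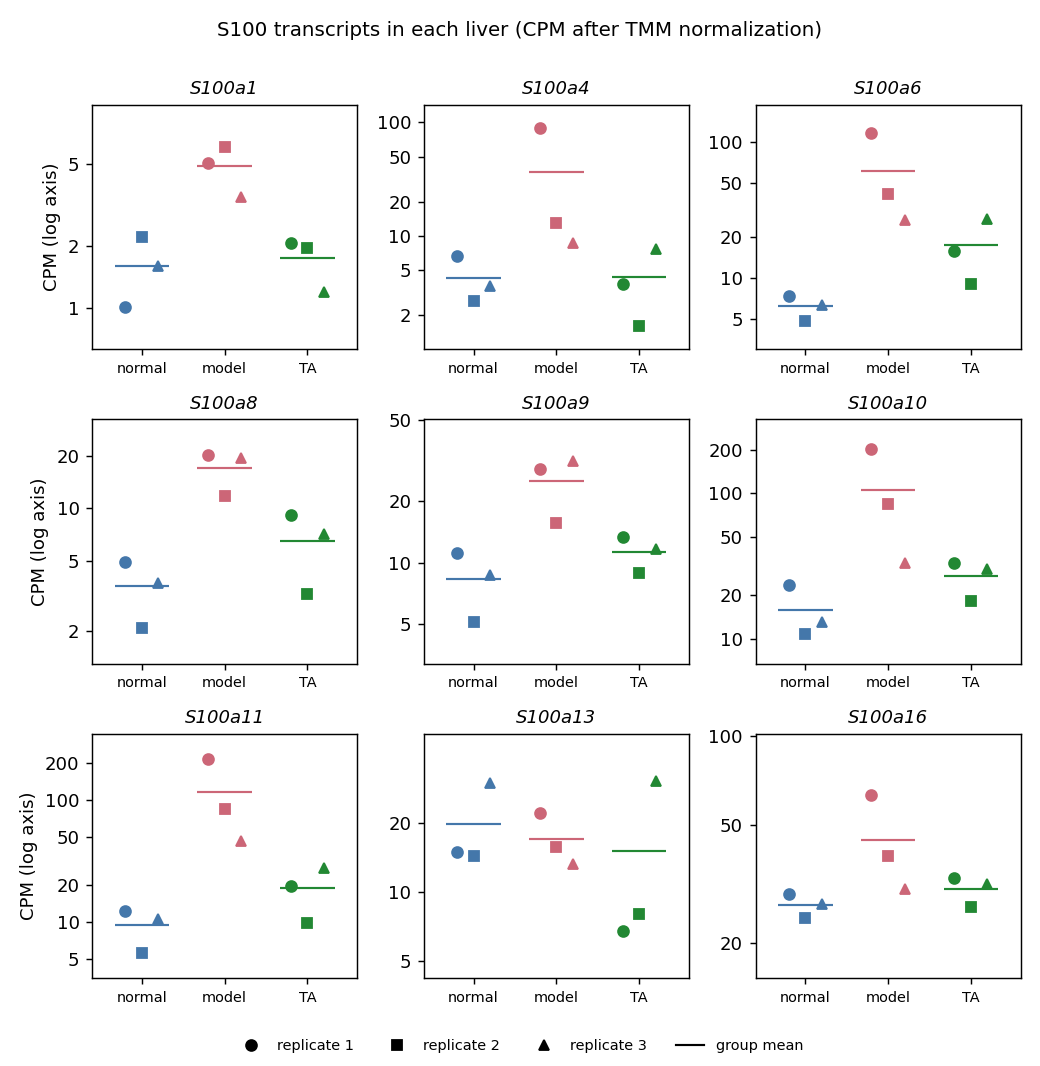
Each panel gives the CPM of 1 S100 gene (log axis) in the 3 normal, 3 model and 3 TA livers. Marker shapes are replicate numbers and lines are group means. Model replicate 1 is highest for S100a4 (88.8 CPM), S100a6 (117 CPM), S100a10 (201 CPM), S100a11 (217 CPM) and S100a16 (63.3 CPM), and S100a13 shows no order of the groups.

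The annexin partners S100a10, S100a11 and S100a6 come first. S100a11 binds annexin A1 and takes part in membrane repair and growth control. It stood at 12.3, 5.56 and 10.5 CPM in normal replicates 1 to 3 and at 217, 84.7 and 46.4 CPM in model replicates 1 to 3. The lowest model liver was well above the highest normal liver, and the log2 fold change was 3.64 (SE 0.62, adjusted p = 0.0194), a 12.5-fold higher level. RefSeq lists 5 pseudogenes and 2 like genes of S100a11, and reads that could map to these copies, which were not measured here, leave its count uncertain.

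S100a6, calcyclin, is a partner of annexins and of calcyclin binding protein. Its levels were 7.37, 4.79 and 6.35 CPM in the normal livers and 117, 41.3 and 26.6 CPM in the model livers. The groups did not overlap, and the log2 fold change was 3.35 (SE 0.57, adjusted p = 0.0191).

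S100a10, or p11, holds annexin A2 in a complex at the membrane and is the member whose calcium sites no longer bind calcium. It was counted at 23.4, 10.9 and 13.1 CPM in the normal livers and at 201, 84.3 and 33.4 CPM in the model livers. Model replicate 3 lay above the highest normal liver by less than the normal livers differed among themselves. The log2 fold change was 2.78 (SE 0.65, adjusted p = 0.0420). RefSeq lists 1 pseudogene of S100a10, with the same limit on its count.

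S100a4, which binds the heavy chain of non-muscle myosin and is a marker of motile fibroblast-like and myeloid cells, had the widest spread of the family. It stood at 6.61, 2.65 and 3.60 CPM in normal livers and at 88.8, 13.04 and 8.71 CPM in model livers. The groups did not overlap, but model replicate 3 was close to normal replicate 1. The log2 fold change of 3.15 (SE 0.90, adjusted p = 0.0701) missed the adjusted threshold.

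S100a1, known from heart muscle where it acts on calcium release channels, was the lowest member by count. Its levels were 1.00, 2.20 and 1.59 CPM in normal livers, from 12 to 34 reads, and 5.07, 6.06 and 3.47 CPM in model livers, from 49 to 115 reads. Here model replicate 1 was not the highest. The log2 fold change was 1.62 (SE 0.45, adjusted p = 0.0650), which passed the unadjusted rule only in the main test. With DESeq2, the study's tool, S100a1 and S100a4 passed the adjusted p too (adjusted p = 0.0119 and 0.00195). They also passed with voom, with library totals and with all 9 libraries in 1 fit, so that 7 of the 9 genes were called there. Those fits also called more of all genes than the main test, which called 1002 of 12730. The numbers were 2714 of 16886 with DESeq2, 3467 of 12730 with voom, 1980 of 12730 with library totals and 1757 of 12998 with all 9 libraries. Over all alternatives that kept every library, adjusted p ran from 0.0119 to 0.0794 for S100a1 and from 0.00195 to 0.0714 for S100a4.

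S100a16, a broadly expressed member, and S100a13, which takes part in the release of FGF1 and IL-1 alpha without a signal peptide, passed neither rule. S100a16 stood at 29.3, 24.3 and 27.1 CPM in normal livers and at 63.3, 39.3 and 30.4 CPM in model livers, with a log2 fold change of 0.75 (SE 0.30, adjusted p = 0.149). Its groups did not overlap, although model replicate 3 lay just above normal replicate 1. S100a13 stood at 14.9, 14.4 and 30.0 CPM in normal livers and at 22.0, 15.7 and 13.3 CPM in model livers. Its groups overlapped, and the log2 fold change of -0.19 (95% interval -1.02 to 0.64, adjusted p = 0.753) kept its sign relative to all genes when library totals replaced TMM (0.51, which is -0.14 against the 0.65 that all genes then had as their median). Without normal replicate 3 the log2 fold change of S100a13 was 0.21, so that its sign is not settled. The reference places S100a13 directly beside S100a1.

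S100a8 and S100a9, neighbours in the genome and subunits of calprotectin, both rose in the model group. S100a8 was at 4.94, 2.07 and 3.76 CPM in normal livers and at 20.1, 11.7 and 19.5 CPM in model livers, a log2 fold change of 2.28 (SE 0.40, adjusted p = 0.0208). S100a9 was at 11.1, 5.11 and 8.70 CPM in normal livers and at 28.7, 15.6 and 31.5 CPM in model livers, a log2 fold change of 1.63 (SE 0.38, adjusted p = 0.0426). In both genes model replicate 1 lay close to model replicate 3, unlike in the annexin partners, and model replicate 2 was the lowest of its group. The FPKM ratio of S100a9 to S100a8 was 1.61, 1.76 and 1.65 in the normal livers and 1.02, 0.952 and 1.16 in the model livers. It was 1.04, 1.97 and 1.17 in the TA livers, which reached across both other groups.

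Neutrophil markers moved with this pair. Of a list of 13, 11 were in the tables and 8 were tested, and 4 of these (Mmp8, Mpo, Camp and Padi4) were called higher at the adjusted p (6.86% of all genes), with none lower. Mpo, Camp and Padi4 had no more than 3 reads in any normal liver. They entered the test through the model livers alone, which leaves little room for a lower call. The summed level of the 11 markers was 5.60 to 16.1 CPM in normal livers, 32.1 to 63.5 CPM in model livers and 8.51 to 20.9 CPM in TA livers. No listed marker was at 0 in every liver of a group. The listed markers did not share 1 order among the model livers. Csf3r, the receptor for the neutrophil growth factor G-CSF, stood at 33.4 CPM in model replicate 1 and at 2.74 and 5.95 CPM in model replicates 2 and 3, and Mmp8, Mmp9, Fcnb, Padi4 and Cxcr2 were also highest in model replicate 1 (Mmp9 9.48 CPM against 2.48 and 2.48 CPM). Mpo, Camp, Ngp, Elane and Prtn3 were lowest there. Mpo stood at 0.794 CPM in model replicate 1 and at 3.06 and 3.33 CPM in the other model livers, and Camp at 0.926 CPM against 4.76 and 6.16 CPM. The part of neutrophil number in the S100a8 and S100a9 result was not tested.

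**Figure D3:**
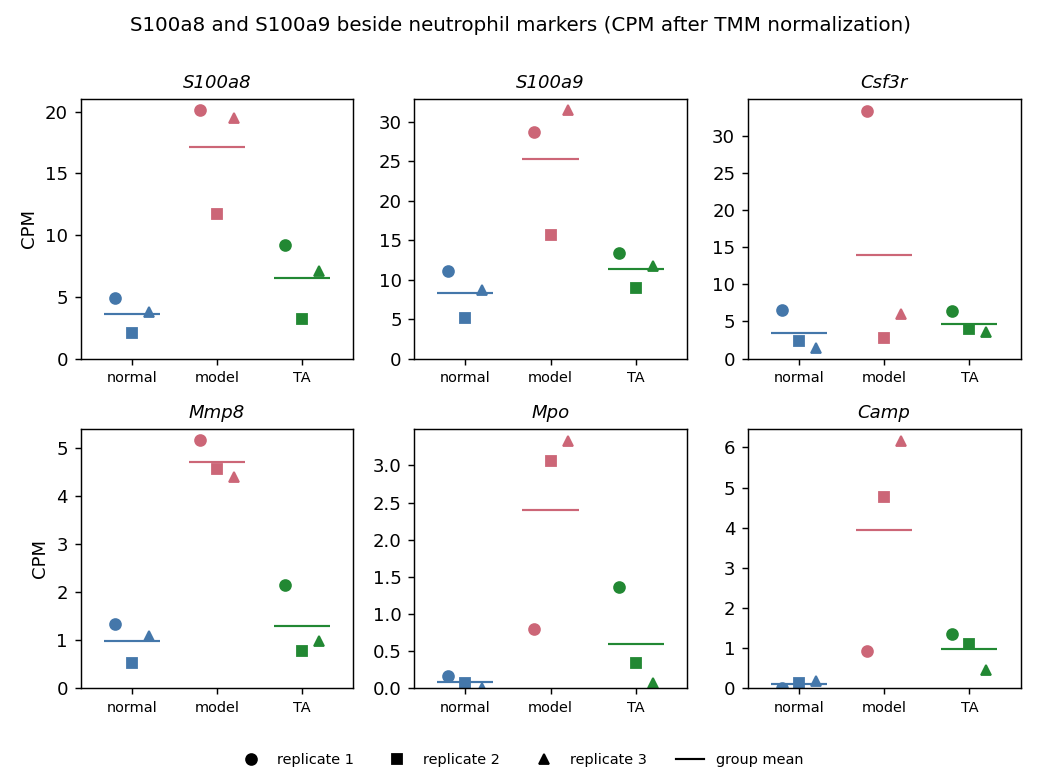
CPM (linear axis) of S100a8, S100a9 and 4 neutrophil markers in each liver, with group means as lines. Among the model livers, Csf3r (33.4 CPM) and Mmp8 (5.16 CPM) are highest in replicate 1, while Mpo (0.794 CPM) and Camp (0.926 CPM) are lowest there.

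Markers of other cell types also moved beside the remaining 7 genes. Stellate cell and myofibroblast markers (9 of 10 in the tables) summed to 209 to 304 CPM in normal livers and to 1193, 1481 and 12464 CPM in model livers, the last in model replicate 1, and 6 of the 9 tested were called higher at the adjusted p. Bile duct markers summed to 17.5 to 26.4 CPM in normal livers and to 96.6 to 168 CPM in model livers, and 6 of 6 were called higher. Krt7 and Cldn4 among them had no more than 8 reads in any normal liver and entered the test through the model livers alone. Of all genes tested, 6.86% were called higher at the adjusted p. Macrophage markers summed to 332 to 459 CPM in normal livers and to 1892 CPM in model replicate 1, and to 262 and 380 CPM in the other model livers, and their members differed in direction. Of 10 tested, Trem2 and Gpnmb, genes of macrophages that take up lipid and debris, rose at the adjusted p (log2 fold change 7.29, adjusted p = 0.0309, and 6.72, adjusted p = 0.0374). Model replicate 1 stood far above the other model livers in both genes. Trem2 was at 105 CPM there, at 7.82 and 7.43 CPM in model replicates 2 and 3 and at no more than 0.585 CPM in normal livers. Gpnmb was at 1116 CPM there, at 38.6 and 66.8 CPM in model replicates 2 and 3 and at no more than 6.34 CPM in normal livers. Marco (-2.17, adjusted p = 0.0639) and the Kupffer cell gene Clec4f (-1.50, adjusted p = 0.179) were lower without overlap. Of the 7 hepatocyte markers none passed a rule, all 7 had negative log2 fold changes and 5 were lower without overlap. Of all genes tested, 17.3% were lower without overlap in this comparison. Mesothelial markers summed to 0.836 to 2.51 CPM in normal livers and to 25.5 to 82.6 CPM in model livers, and 2 of the 5 were at 0 in every normal liver. Lymphocyte markers summed to 22.3 to 32.2 CPM and 41.4 to 106 CPM, endothelial markers to 171 to 213 CPM and 169 to 321 CPM, and the 1 adipocyte marker in the tables to no more than 0.261 CPM in any liver. The part of these cell types in the S100 levels was not tested.

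**Figure D4:**
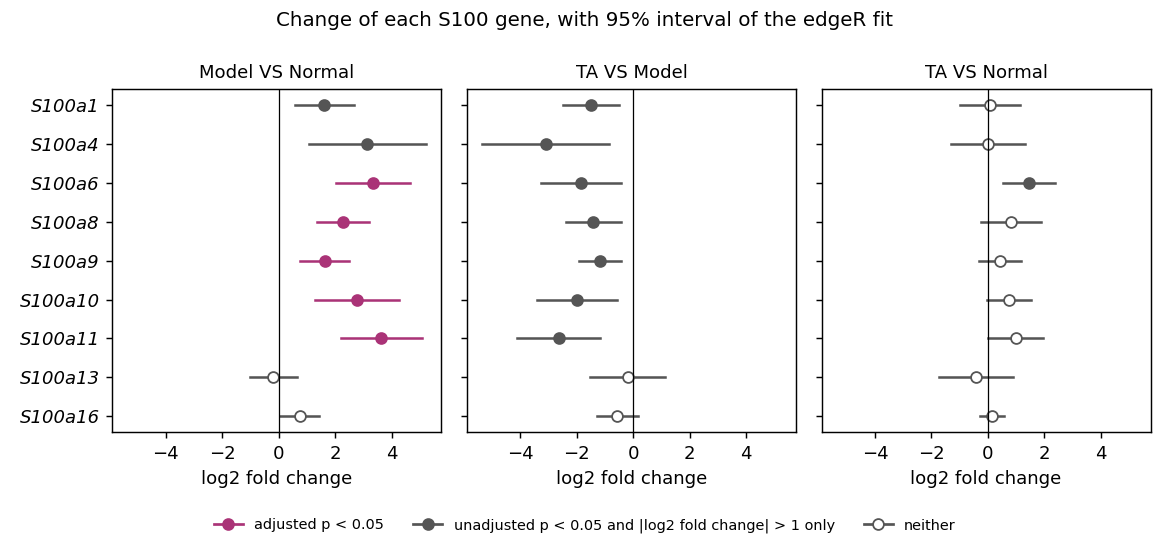
Log2 fold changes of the 9 S100 genes (points) with 95% intervals (bars) in 3 comparisons, 1 panel each. Purple points passed the adjusted p, filled grey points the unadjusted rule only and open points neither. In Model VS Normal 5 genes are purple, in TA VS Model and TA VS Normal none is.

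Leaving out single rats changed these calls. Without model replicate 1 the log2 fold changes in Model VS Normal were 2.80 for S100a11, 2.46 for S100a6, 1.90 for S100a10, 2.12 for S100a8 and 1.50 for S100a9, and S100a9 lost its call (adjusted p = 0.0597). S100a4 came to 1.35 without that liver, against 3.15 with it, and S100a16 to 0.37 against 0.75. Without model replicate 2, S100a10 lost its call (adjusted p = 0.0609), and without model replicate 3, S100a1 and S100a4 gained one (adjusted p = 0.0427 and 0.0190). With normal replicate 1, 2 or 3 left out, none of the 9 genes passed the adjusted p, whose values for the 5 called genes ran from 0.0608 to 0.175, but 51, 0 and 0 of all genes did, and the log2 fold change of S100a11 was then 3.86, 3.35 and 3.70. The same 7 genes passed the unadjusted rule in each of these 6 fits. Unadjusted p under 0.05, without the fold limit, was reached in these fits by 2727 of 13246 to 4675 of 13159 genes tested.

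**Figure D5:**
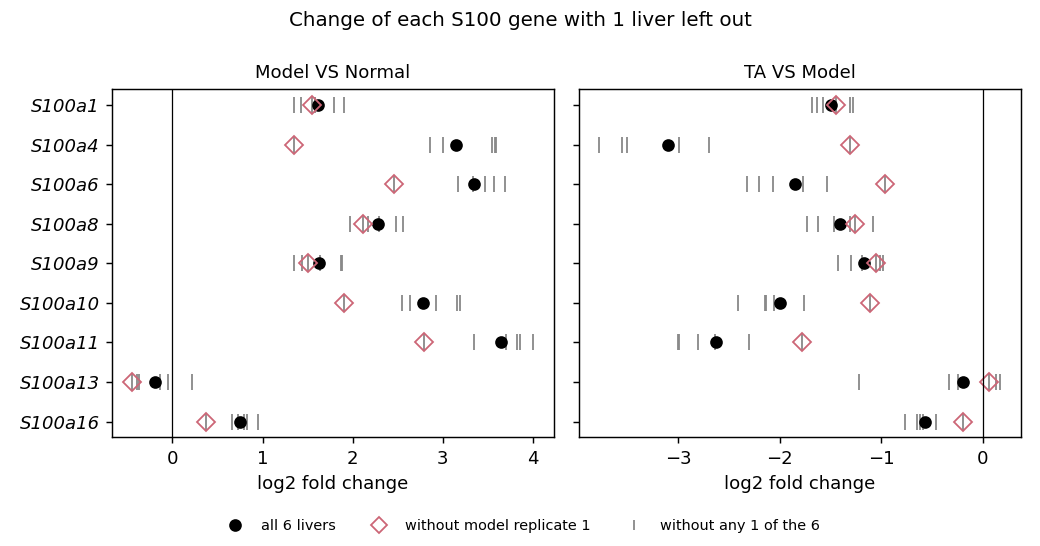
Log2 fold changes of the 9 S100 genes with all 6 livers (black points), without model replicate 1 (diamonds) and without each other liver (ticks), for Model VS Normal and TA VS Model. The distance between point and diamond is widest for S100a4, from 3.15 to 1.35 in Model VS Normal and from -3.10 to -1.31 in TA VS Model.

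TA VS Model asked how the S100 transcripts of CCl4 livers differed after TA. It uses the same 3 model livers as Model VS Normal, so that a high model liver enters both. No gene of the 12781 tested passed the adjusted p in edgeR's quasi-likelihood test (0% called, smallest adjusted p 0.230), and neither did any S100 gene. Unadjusted p under 0.05 was reached by 1999 genes (15.6%), and by 7 of the 9 S100 genes. With DESeq2, 4 S100 genes (S100a1, S100a4, S100a10 and S100a11) passed the adjusted p, among 520 of 16898 genes. With limma voom 1 did (S100a11), among 205 of 12781 genes. By the unadjusted rule with its fold limit, 7 of the 9 were called lower in the TA group, where 10.2% of all genes were. Levels of 6 genes were lower in every TA liver than in any model liver, as were those of 12.6% of all genes. The median log2 fold change was -1.50 over the 9 genes, -1.85 over the 7 outside the neutrophil pair and -0.00 over all genes tested.

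Among the annexin partners, S100a11 was at 19.6, 9.77 and 27.8 CPM in TA replicates 1 to 3, each below the lowest model liver at 46.4 CPM. Its log2 fold change of -2.63 (SE 0.64, adjusted p = 0.246 by edgeR) had the smallest p of the 9 genes. S100a10 was at 33.2, 18.3 and 30.1 CPM, with a log2 fold change of -1.99 (SE 0.62, adjusted p = 0.260 by edgeR). TA replicate 1 lay just below model replicate 3, at 33.4 CPM. S100a6 was at 15.7, 9.09 and 27.2 CPM, where TA replicate 3 reached above model replicate 3 at 26.6 CPM, and its log2 fold change was -1.85 (SE 0.62, adjusted p = 0.264 by edgeR).

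S100a4 was at 3.79, 1.61 and 7.69 CPM in the TA livers, with a log2 fold change of -3.10 (SE 0.97, adjusted p = 0.260 by edgeR). Those levels covered the range of the normal livers. S100a1 was at 2.08, 1.95 and 1.19 CPM, below every model liver, with a log2 fold change of -1.50 (SE 0.42, adjusted p = 0.252 by edgeR). The neutrophil pair gave -1.41 for S100a8 (SE 0.42, adjusted p = 0.258 by edgeR) and -1.17 for S100a9 (SE 0.32, adjusted p = 0.252 by edgeR). S100a8 was at 9.16, 3.23 and 7.09 CPM and S100a9 at 13.4, 8.92 and 11.6 CPM, and neither overlapped the model livers. Of 9 neutrophil markers tested, 6 were called lower by the unadjusted rule (10.2% of all genes) and none at the adjusted p. Lower without overlap were 4 of them (12.6% of all genes). Padi4, which is in both counts, had no more than 9 reads in any TA liver and entered this test through the model livers alone.

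S100a16 and S100a13 passed neither rule in TA VS Model. S100a16 was at 33.1, 26.5 and 31.6 CPM, with a log2 fold change of -0.57 (95% interval -1.29 to 0.15). S100a13 was at 6.73, 7.98 and 30.5 CPM, with a log2 fold change of -0.19 (95% interval -1.52 to 1.13). TA replicate 3 was the highest of all 9 livers for S100a13 and normal replicate 3 the second, while the other TA livers were the lowest. Without TA replicate 3 the log2 fold change of S100a13 was -1.22 (adjusted p = 0.390 by edgeR), past the unadjusted rule.

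The size of the TA VS Model differences rested partly on model replicate 1. Without it the log2 fold changes were -1.78 for S100a11, -1.11 for S100a10, -0.97 for S100a6 and -1.31 for S100a4. They were -1.45 for S100a1, -1.26 for S100a8, -1.05 for S100a9 and -0.20 for S100a16. S100a4 and S100a6 then no longer passed the unadjusted rule (adjusted p = 0.530 and adjusted p = 0.543 by edgeR). The other 5 genes still did, where 1225 of 12911 genes tested had an unadjusted p under 0.05. S100a6 also lost this call without TA replicate 1 (adjusted p = 0.441 by edgeR) or TA replicate 2 (adjusted p = 0.567 by edgeR), and S100a9 without model replicate 3, where it came to -0.98. Beside these values, stellate cell and myofibroblast markers summed to 692 to 1184 CPM in the TA livers, below the 1193 CPM of the lowest model liver, and bile duct markers to 32.3 to 39.6 CPM. Of the 9 stellate cell and myofibroblast markers tested, 5 were lower without overlap (12.6% of all genes). Acta2, Tagln, Col3a1 and Lrat overlapped, and Lrat had a positive log2 fold change (0.50). In TA replicate 3, Acta2 (16.1 CPM) and Tagln (31.4 CPM) lay above model replicate 3 (11.6 and 26.3 CPM). Macrophage markers summed to 359 to 801 CPM and mesothelial markers to 4.67 to 13.5 CPM in the TA livers. The part of these cells was not tested.

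TA VS Normal asked how far the TA livers stood from normal livers. No S100 gene passed the adjusted p in edgeR's quasi-likelihood test, where 0.263% of 12179 genes did (32 genes). A fit blocked on replicate number called 203 genes and still no S100 gene, with adjusted p = 0.0605 for S100a6, 0.0700 for S100a11 and 0.0854 for S100a10. Unadjusted p under 0.05 was reached by S100a6 and S100a11, and by 9.43% of all genes. Under the block it was reached by 6 S100 genes (S100a6, S100a8, S100a9, S100a10, S100a11 and S100a13) and by 18.7% of all genes. S100a6, S100a8, S100a9, S100a10, S100a11 and S100a16 were each higher in the TA liver than in the normal liver of the same number for 3 of 3 numbers. These are different rats, and the share of all genes with that pattern was not counted, so that nothing is concluded from it. DESeq2 called S100a6 alone of the 9 genes at the adjusted p, among 332 of 16045 genes. By the unadjusted rule with its fold limit S100a6 was called higher, 1 of 9 genes, where 4.24% of all genes were. It was also the 1 gene with no overlap between the groups, a pattern that 8.26% of all genes showed in that direction. The median log2 fold change was 0.42 over the 9 genes, 0.15 without S100a8 and S100a9, and -0.01 over all genes tested.

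S100a6 differed by a log2 fold change of 1.46 (SE 0.40, adjusted p = 0.218 by edgeR), and its lowest TA liver, at 9.09 CPM, was above its highest normal liver, at 7.37 CPM. Without TA replicate 3 the value was 0.98, below the fold limit. S100a11 had a log2 fold change of 0.98 (SE 0.42, adjusted p = 0.510), S100a8 of 0.83 (SE 0.47, adjusted p = 0.685) and S100a10 of 0.76 (SE 0.34, adjusted p = 0.549), each with overlapping groups. Without normal replicate 1, S100a10 (1.14) and S100a11 (1.21) passed the unadjusted rule as well, and without TA replicate 2, S100a8 (1.15) and S100a11 (1.30) did.

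The other 5 genes did not pass either rule. S100a9 had a log2 fold change of 0.42 (SE 0.33), S100a16 of 0.15 (SE 0.19) and S100a1 of 0.08 (SE 0.47). For S100a4 the value was 0.00 with a 95% interval of -1.30 to 1.31, which leaves room for a level more than 2-fold higher or lower. S100a13 came to -0.42 (SE 0.58), and to -1.45 without TA replicate 3 (adjusted p = 0.186 by edgeR), past the unadjusted rule.

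The partners of these proteins were taken from a list of 27 genes that bind S100 proteins, receive them at the cell surface or relay that signal, of which 25 were in the tables. In Model VS Normal 23 were tested, and 5 rose at the adjusted p (6.86% of all genes did), with none lower. By the unadjusted rule 8 were called higher (16.6% of all genes), and the median of the list was 0.11. Anxa2, annexin A2, the partner of S100a10, was at 22.9, 12.6 and 12.2 CPM in normal livers and at 328, 108 and 45.8 CPM in model livers (log2 fold change 3.37, adjusted p = 0.0342). Ahnak, a giant scaffold protein that binds the complex of S100a10 with annexin A2, had a log2 fold change of 2.45 (adjusted p = 0.0277).

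Anxa1, annexin A1, the partner of S100a11, was at 12.1, 4.01 and 7.69 CPM in normal livers and at 101, 34.0 and 43.9 CPM in model livers (log2 fold change 2.94, adjusted p = 0.0245). Cd44, a hyaluronan receptor listed with S100a4, was at 8.71, 4.01 and 3.60 CPM and at 97.7, 40.9 and 33.1 CPM (log2 fold change 3.43, adjusted p = 0.0155). In each of these genes the model livers lay above all normal livers, and model replicate 1 was the highest. Without that liver, an alternative added after the data were seen, the log2 fold changes were 2.28 for Anxa2, 1.83 for Ahnak, 2.30 for Anxa1 and 2.77 for Cd44, and these 4 partners still passed the adjusted p. Pygb, the brain form of glycogen phosphorylase and a listed partner of S100a1, came to 2.47 (adjusted p = 0.0414), and to 1.74 without that liver (adjusted p = 0.0574). Syt1, a vesicle calcium sensor listed with S100a13, came to 4.44 (adjusted p = 0.0585) at levels of 5.80 CPM or less in every liver.

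Receptors and adaptors of secreted S100 proteins went in both directions. Of 7 receptors and adaptors listed, 6 were tested, and none passed the adjusted p in Model VS Normal. Cd36 and Tlr4 were called higher by the unadjusted rule (16.6% of all genes), a pair named here after its values were seen. Cd36, a scavenger receptor, had a log2 fold change of 1.85 (adjusted p = 0.0679) and Tlr4, a receptor of calprotectin, of 1.50 (adjusted p = 0.121). Without model replicate 1 the values were 1.18 and 0.75, and Tlr4 no longer passed the unadjusted rule. Cd14, the co-receptor of Tlr4 (-0.73, adjusted p = 0.169), and the adaptor Myd88 (-0.42, adjusted p = 0.305) were lower in every model liver than in any normal liver, as were 17.3% of all genes. Neither gene passed a rule, and both were also named after their values were seen. Partners of S100a6 in the list, Cacybp (-0.54, adjusted p = 0.181), Anxa6 (0.11, adjusted p = 0.818) and Anxa11 (0.22, adjusted p = 0.583), passed neither rule. Myh9, the myosin that S100a4 binds, had no more than 4 reads in any liver, too few to be tested. Since the build behind the counts is unsettled, these reads cannot tell how much Myh9 the livers held.

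In TA VS Model 23 listed partners were tested and none passed the adjusted p by edgeR. By the unadjusted rule 6 were called lower (10.2% of all genes) and none higher, with a median of -0.27 over the list. They were Anxa2 (-2.74), Cd44 (-2.44), Anxa1 (-2.04), Syt1 (-1.98), Ahnak (-1.36) and Pygb (-1.30), all log2 fold changes. Without model replicate 1, 5 were called lower, with Fgf1 added, and the values were -1.65 for Anxa2, -1.78 for Cd44, -1.41 for Anxa1 and -2.28 for Syt1, while Ahnak (-0.74) and Pygb (-0.57) no longer passed. In TA VS Normal 22 were tested, none passed the adjusted p, and Pygb (1.14) and Ahnak (1.06) were called higher by the unadjusted rule (4.24% of all genes), with a median of -0.03.

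Other genes of the family had few reads or none. RefSeq holds 20 protein-coding rat S100 genes, of which 14 were in the tables, the 9 described and S100a3, S100a5, S100b, S100g and S100z. None of these 5 had enough counts for the test. S100a3 was read 54 times in model replicate 1, 5 times in model replicate 2 and not more than 1 time in any other liver. S100b, a marker of glia and Schwann cells, had 11, 6 and 6 reads in model livers, from 1 to 3 in normal livers and from 0 to 2 in TA livers.

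The genes whose pattern over the 9 livers was nearest to each S100 gene were found by the root mean square (RMS) difference of log2 CPM after each gene was centred on its own mean, with 7952 genes as candidates, all with a mean log2 CPM no lower than 3. Nearest to S100a4 were Acta2 (RMS difference 0.45), the smooth muscle actin of activated stellate cells, Tagln (0.48), another smooth muscle gene, and Crip1 (0.53). Nearest to S100a6 was Efemp2 (0.22), a gene of elastic fibre assembly, then C1qtnf5 (0.32) and Ldhb (0.33). S100a10 had Pea15 (0.25), Ptrf (0.30) and Tagln2 (0.30), and S100a11 had Clec10a (0.34), Cd9 (0.34) and Lilrb4 (0.35). These values are small against the spread of the genes themselves, since S100a4 varied by an RMS of 1.55 around its own mean and S100a11 by 1.59.

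For the neutrophil pair, S100a8 was nearest to Filip1l (0.30), Ncf1 (0.36), a subunit of the phagocyte oxidase, and Ly6e (0.41), and S100a9 to Fgfr1 (0.24), Coro1a (0.29), an actin regulator of leukocytes, and Akna (0.31). S100a1 was nearest to Frmd6 (0.37), Tpm1 (0.37) and Zmiz1 (0.39), S100a13 to Tbkbp1 (0.22), Sema6c (0.27) and Fam98c (0.29), and S100a16 to Rps4x (0.070), Sptlc2 (0.077) and Rpl6 (0.080). Within the family the closest patterns were those of S100a6 with S100a11 (RMS difference 0.351) and of S100a8 with S100a9 (0.356), followed by S100a6 with S100a10 (0.424) and S100a10 with S100a11 (0.495). The order of such near genes depended on model replicate 1. Without it, by an alternative added after the data were seen, Efemp2 and Fgfr1 were still nearest to S100a6 and S100a9, Crip1 was nearest to S100a4 (0.34) with Acta2 10th (0.46), and Vim was nearest to S100a10 and Ldhb to S100a11. All points come from the same 9 livers and share their depth and scaling, and no test was made of these distances.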

How the data were processed

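Liver RNA of 9 rats was sequenced after selection of polyadenylated RNA. Reads were trimmed, aligned by STAR and assigned to genes by HTSeq-count in the authors' hands. The methods name a human genome as reference, the submitters' processing notes list mm9, and the symbols are those of rat, so that the build is unsettled. Deposited were the authors' raw counts of reads on each gene, not normalized, in a pair of tables (normal with model, TA with model) of 16938 and 16948 genes, of which 16730 are in both. The model counts were identical in both. The FPKM values the authors deposited, scaled to library totals and gene length, were used to compare levels between genes. Columns with the authors' own normalized values (12 columns), log2 fold changes and p-values were not used.

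Counts were tested with edgeR 4.0.16 (R 4.3.3) by the quasi-likelihood test, with TMM normalization and edgeR's filter on low counts, on the 6 libraries of a comparison, with Benjamini-Hochberg adjustment of p-values over all genes tested. DESeq2 1.42.0, which the study used, and limma 3.58.1 served as alternatives. Calls were made at an adjusted p under 0.05 and by the rule of the study's methods (p not adjusted and under 0.05, log2 fold change above 1 in size). SE was taken as log2 fold change over the root of F. A single gene of 3 rats against 3 cannot go below p = 0.1 in an exact two-sided permutation test, which was reached by genes without overlap. CPM for single livers used TMM over all 9 libraries, and patterns used log2 CPM with a prior count of 2. The test was run on simulated data drawn without an outlying library, which cannot show how it handles a liver such as model replicate 1.

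The S100 genes, the lists of partners and cell type markers and the tests were chosen with earlier results of these data known. The text names all 9 S100 genes, listed partners that passed a call rule (up to 6 per comparison by size of log2 fold change), the markers with the most counts and the 3 genes of nearest pattern. Replicate numbers come from the labels and the rats are different animals. Same-numbered livers of the TA and normal groups deviated together from their group means, with correlations of 0.258, 0.426 and 0.501, so that a fit with the number as a block was also made. Alternatives were other normalizations, other filters on low counts, the newer quasi-likelihood form, all 9 libraries in 1 fit and leaving out each library in turn. Precision is limited by 3 rats per group.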

Additional observations from a re-analysis of the deposited data

How the results depend on the processing

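With library totals in place of TMM the median log2 fold change of all genes was 0.65 in Model VS Normal, -0.48 in TA VS Model and 0.18 in TA VS Normal, and changes are to be read against these. In Model VS Normal the genes called at the adjusted p, 1002 in the report, were 1980 with library totals, 2714 with DESeq2, 3467 with limma voom, 1757 with all 9 libraries in 1 fit and 0 to 2537 with a library left out, when 0 to 7 S100 genes were called. In TA VS Model DESeq2 called 4 S100 genes and 520 genes in all, and voom 1 and 205. A library left out gave 0 to 1 genes at the adjusted p and 792 to 2792 by the unadjusted rule, for which library totals gave 2447. In TA VS Normal DESeq2 called 1 S100 gene, and library totals gave 2 by the unadjusted rule, leaving out a library 1 to 3. The 32 genes called at the adjusted p there were 56 with library totals, 332 with DESeq2, 127 with voom, 76 without a filter, 14 with all 9 libraries in 1 fit and 1 to 61 with a library left out.

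S100a13 in Model VS Normal came to 0.51 (SE 0.46) with library totals and to -0.14 against the median of all genes, so that its sign is not settled. With a library left out it ran from -0.44 to 0.21 in Model VS Normal, from -1.22 to 0.17 in TA VS Model and from -1.45 to 0.010 in TA VS Normal. S100a4 in TA VS Normal reversed to -0.0027 with DESeq2, -0.49 with voom, -0.0039 without a filter and -0.14 with the replicate block, and ran from -0.68 to 0.45 with a library left out, as S100a1 did from -0.17 to 0.39. The cause was not tested.

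The replicate block gave 203 genes in TA VS Normal and changed no call of an S100 gene there or in TA VS Model. In Model VS Normal same-numbered livers correlated at 0.210, -0.057 and -0.052, which cannot show whether they shared more than a number. There the block called 1216 genes and 6 S100 genes, with S100a4 at 2.49 (adjusted p = 0.0289, and 0.00195 to 0.0714 over the alternatives with all libraries). In TA VS Model the correlations were 0.218, -0.035 and 0.007, and the block called 0 genes. In each of these comparisons 1 liver of 3 correlated best with its own number. S100a1, with 12 to 34 reads in normal livers, is the gene most limited by depth.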
